A study of Mus musculus with 4 samples.

Results

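The genes described here build and supply the apical membrane of epithelial cells. There are 10 of them, Ezr, Msn, Rdx, Vil1, Espn, Eps8, Myo5b, Myo6, Stx3 and Vamp8, taken by symbol from the 52125 rows of the table, and 10 of the 10 passed the filter on low counts that left 18285 genes for testing. Bulk RNA was sequenced from the corpus, where the stomach makes its acid, of wild-type C57BL/6 mice aged 6 to 8 weeks. The 2 mice of the HDT group had received HDT in 1 intraperitoneal dose (5 mg for each 20 g a mouse weighed), which injures the stomach, and the vehicle group also held 2 mice. Each mouse gave 1 library at 48 hr. HDT is the common short form of high-dose tamoxifen in gastric injury work, but the labels do not spell it out. The sample titles speak of vehicle and the protocol text of untreated mice, so what the controls received cannot be settled here, and no label names a shared litter or batch. With 2 mice in each group, p-values reflect only the variation among these mice, and much of each spread estimate comes from other genes.

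Microvilli are finger-like folds of the apical membrane held up by bundled actin. Ezrin, moesin and radixin, the ERM proteins, tie that actin to the membrane; villin and espin bundle it, and Eps8 caps and bundles it. Myosin Vb carries recycling endosomes towards the apical surface and myosin VI moves the opposite way along actin, while syntaxin 3 and Vamp8 are SNAREs, proteins that fuse vesicles with membranes. In the gastric parietal cell, ezrin lies on the apical canaliculi, where tubulovesicles carrying the proton pump fuse when acid is secreted.

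At 48 hr, 2 of the 10 genes were called higher in HDT, Vil1 and Eps8, and 4 were called lower, Ezr, Rdx, Myo5b and Vamp8, while Msn, Espn, Myo6 and Stx3 had no call. Of all tested genes 37.7% were called, 18.4% higher and 19.3% lower. edgeR's quasi-likelihood test on the recovered reads made the same number of calls among the 10 genes, 2 higher and 4 lower, where it called 37.6% of all genes, 18.4% higher and 19.2% lower. DESeq2 called 2 higher and 3 lower, where it called 30.2% of all genes, 14.4% higher and 15.8% lower. The median log2 fold change of the 10 genes was −0.06, against −0.001 over all tested genes. A call means a limma p-value under 0.05 after adjustment over all tested genes. Calls are relative to the median gene under TMM (trimmed mean of M-values), a scaling that assumes most genes do not change. At the deposited scaling, where the median of all genes was 0.526, 7 of the 10 genes were called higher (62.8% of all genes) and 1 lower (5.46%), against 68.3% of all genes called in either direction. There Ezr and Vamp8 had no call and Myo5b was called higher.

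Promoters of 4 of the 10 genes are shown because short strings stand out or recur in them. Each runs from 250 bases before an annotated start to 50 bases after it, 5′ to 3′ on the gene's strand (RefSeq, GRCm38.p6). Promoters of 8 of the 10 genes were searched. Ezr lies at chr17:6782731-6783030 on the minus strand, and its capitals mark an AP-1 site, TGANTCA. Vil1 lies at chr1:74409134-74409433 on the plus strand, and its first capitals mark a CArG box, the motif of serum response factor. The later capitals in Vil1 and the capitals in Espn, at chr4:152128876-152129175 on the minus strand, and Vamp8, at chr6:72390618-72390917 on the minus strand, mark the string GGACAAAGGT.
Ezr: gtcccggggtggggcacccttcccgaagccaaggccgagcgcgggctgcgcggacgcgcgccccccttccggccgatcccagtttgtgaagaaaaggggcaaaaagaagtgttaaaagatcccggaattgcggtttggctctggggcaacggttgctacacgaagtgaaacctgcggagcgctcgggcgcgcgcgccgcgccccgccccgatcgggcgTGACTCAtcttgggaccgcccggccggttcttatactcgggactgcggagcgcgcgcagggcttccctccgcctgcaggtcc
Vil1: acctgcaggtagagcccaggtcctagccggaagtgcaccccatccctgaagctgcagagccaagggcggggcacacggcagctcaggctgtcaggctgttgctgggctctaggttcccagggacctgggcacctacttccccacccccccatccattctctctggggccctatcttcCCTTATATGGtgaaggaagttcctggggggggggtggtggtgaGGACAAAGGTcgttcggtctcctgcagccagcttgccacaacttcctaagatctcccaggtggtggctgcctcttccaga
Espn: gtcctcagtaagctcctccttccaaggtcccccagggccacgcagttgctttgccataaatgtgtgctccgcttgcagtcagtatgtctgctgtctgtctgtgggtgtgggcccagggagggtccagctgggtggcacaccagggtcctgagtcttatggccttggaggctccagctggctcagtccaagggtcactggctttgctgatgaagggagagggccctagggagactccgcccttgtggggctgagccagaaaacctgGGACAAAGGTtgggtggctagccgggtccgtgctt
Vamp8: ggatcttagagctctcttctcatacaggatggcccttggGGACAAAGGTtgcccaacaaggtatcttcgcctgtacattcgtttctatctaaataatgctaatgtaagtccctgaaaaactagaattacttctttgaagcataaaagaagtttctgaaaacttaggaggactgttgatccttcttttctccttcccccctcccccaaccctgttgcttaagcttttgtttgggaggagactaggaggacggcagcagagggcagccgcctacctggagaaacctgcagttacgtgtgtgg
Motifs were searched on both strands and chosen after the data were at hand. The AP-1 site was held by 7.81% of 32851 promoters of this length and the CArG box by 1.63%. GGACAAAGGT is 1 of 3 strings of 10 bases that were each found in promoters of 3 of the genes, the longest shared so widely, and 0.167% of all promoters held it. The other 2, CCCCGCCCCG in Ezr, Rdx and Myo6 and CGCCCCGCCC in Ezr, Msn and Myo6, are GC-rich and were held by 3.2% and 3.9% of promoters. No marked motif overlaps another, and the Espn window is 1 of 3 annotated for that gene. The 3 genes with GGACAAAGGT did not share a call under TMM, since Vil1 was higher, Vamp8 lower and Espn neither, while at the deposited scaling Vil1 and Espn were higher and Vamp8 had no call.

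All 10 are protein-coding genes, and positions are those of GENCODE M21 on GRCm38. Ezr spans chromosome 17 from 6738041 to 6782784, Msn chromosome X from 96096042 to 96168552 and Rdx chromosome 9 from 52047173 to 52088735. Vil1 spans chromosome 1 from 74409376 to 74435559, Espn chromosome 4 from 152120331 to 152152371 and Eps8 chromosome 6 from 137477245 to 137654876. Myo5b spans chromosome 18 from 74440936 to 74771493 and Myo6 chromosome 9 from 80165031 to 80311729. Stx3 spans chromosome 19 from 11775118 to 11819403 and Vamp8 chromosome 6 from 72385223 to 72390703. The strand setting of the counting is not stated, and 1.38% of the Vil1 exon bases (49) are shared with Usp37 on the opposite strand, as are 4 Ezr bases with Sytl3 and 136 Msn bases with a small RNA gene that had 0 reads.

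The libraries held 41536686 to 42674985 reads, and levels are given as CPM, each count relative to the TMM-scaled size of its library. Genes defining the corpus were present in every library. The 12 parietal cell markers summed to 2423 to 2913 CPM in HDT, against 13560 to 14830 CPM in vehicle, and 10 of them were called lower and 0 higher; the proton pump genes Atp4a and Atp4b had log2 fold changes of −2.87 and −3.20. Chief cell markers summed to 32370 to 45690 CPM in HDT, against 155900 to 189200 CPM in vehicle, and 4 of the 6 were called lower and 0 higher. Most of that sum was the pepsinogen gene Pgc (log2 fold change −2.19). The pepsinogen gene Pga5 (−2.98) had a mean of only 175 CPM in vehicle. Pit cell markers summed to 65960 to 80870 CPM in HDT, against 120600 to 123600 CPM in vehicle. Neck cell markers summed to 670 to 706 CPM in HDT, against 1688 to 1721 CPM in vehicle. Leukocyte markers summed to 286 to 362 CPM in HDT, against 149 to 158 CPM in vehicle, and fibroblast markers to 1923 to 2162 CPM in HDT, against 1070 to 1087 CPM in vehicle. Endothelial markers, at 100.3 to 114 CPM in HDT and 96.9 to 117 CPM in vehicle, and smooth muscle markers, at 1739 to 2548 CPM in HDT and 2038 to 2892 CPM in vehicle, overlapped. Forestomach squamous markers were low, at 2.64 to 3.09 CPM in HDT and 1.39 to 1.90 CPM in vehicle. Vehicle replicate 2 stood apart in the sum of 6 pancreatic acinar genes, at 154 CPM, against 14.7 CPM in vehicle replicate 1 and 5.45 to 6.65 CPM in HDT. Of these, Amy2a5 was at only 0.116 CPM there. In whole tissue, fewer cells of a type and less RNA per cell cannot be told apart.

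Ezr was by far the most abundant ERM gene, and it fell to 718 and 733 CPM in HDT, against 1082 and 1076 CPM in vehicle. The HDT mice lay below the vehicle mice, with a spread within each group that was small beside the gap. The log2 fold change was −0.57 (SE 0.066, 95% interval −0.73 to −0.42, limma adjusted p = 0.000384), a fold of 0.672. As a plain share of all reads, Ezr took 0.0876% and 0.0866% in HDT, against 0.0917% and 0.088% in vehicle, and at the deposited scaling its log2 fold change was −0.04 (limma adjusted p = 0.618). The call therefore rests on reading Ezr against the median gene. The summed markers of parietal, chief, pit and neck cells were also lower in HDT under TMM. At the deposited scaling 7 of 12, 3 of 6, 2 of 7 and 3 of 4 of these markers were called lower, and 1 of each list higher. Of all tested genes, 5.46% were called lower and 62.8% higher there. The part of these cell types in the fall of Ezr was not tested.

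Rdx, which encodes radixin, had 29.2 and 28.7 CPM in HDT, against 52.7 and 54.6 CPM in vehicle. The groups did not overlap. That was so for 7 of the 10 genes, with Vil1, Espn and Eps8 higher and Ezr, Rdx, Myo5b and Vamp8 lower, and for 70.8% of all tested genes (35.3% higher, 35.5% lower). Its log2 fold change of −0.89 (SE 0.064, limma adjusted p = 3.75e-05) was the lowest of the 10 genes, and it remained called lower at the deposited scaling, at −0.36 (limma adjusted p = 0.0011). Rdx thus fell under either scaling, to 0.54 of the vehicle level under TMM. Msn, which encodes moesin, the ERM protein of leukocytes and endothelium, had 61.0 and 68.9 CPM in HDT, against 62.3 and 59.0 CPM in vehicle. The groups overlapped, and the log2 fold change was 0.10 (95% interval −0.08 to 0.27, limma adjusted p = 0.361), which was 0.63 and called higher at the deposited scaling. Of the 10 leukocyte markers 8 were tested and 6 were called higher, among them Cd68 at 1.87, while Ptprc had a log2 fold change of 0.03; their part in the Msn level was not tested.

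**Figure D1:**
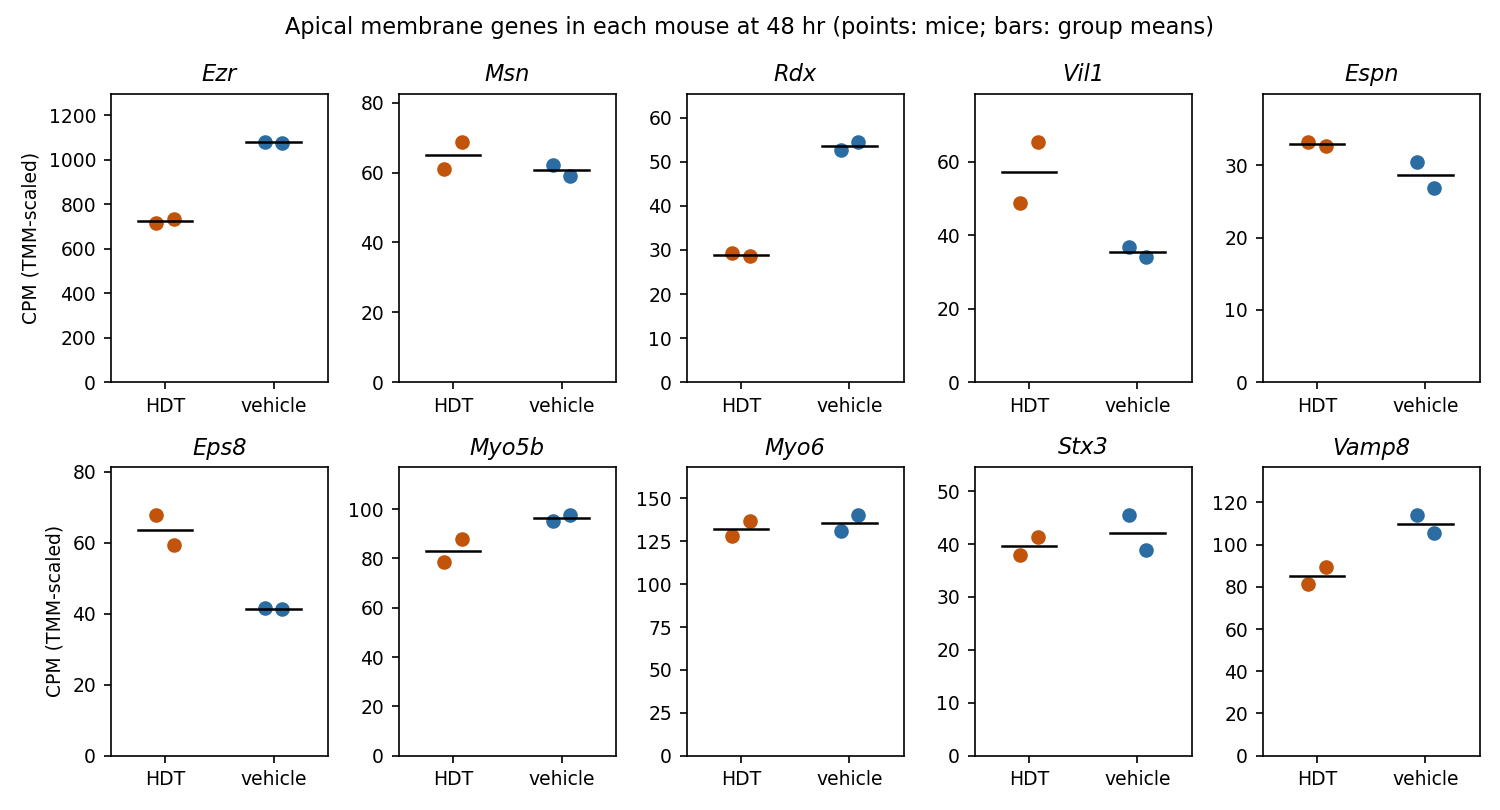
CPM on TMM-scaled library sizes (y axis, from 0) for each of the 10 genes in the HDT and vehicle mice; points are mice and bars are group means of 2. Ezr and Rdx lie lower in both HDT mice and Vil1 and Eps8 higher, while the groups overlap for Msn, Myo6 and Stx3.

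A share within one library does not depend on scaling. Per length, Ezr made up 93.2% and 92.9% of the summed ERM level in HDT, against 93.9% in each vehicle library. Msn made up 4.11% and 4.54% in HDT, against 2.81% and 2.68% in vehicle, and Rdx 2.69% and 2.58%, against 3.24% and 3.38%. Msn thus took a larger part and Rdx a smaller part of the summed ERM level in both HDT mice, by 1.58 and −0.679 percentage points. With reads not divided by length, the differences had the same signs and were 2.84 points for Msn, −0.961 for Rdx and −1.88 for Ezr, against −0.903 for Ezr per length. With 2 mice against 2, an exact permutation test cannot go below p = 0.33, so these shares are given without a call.

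Vil1, which encodes villin, rose to 48.9 and 65.5 CPM in HDT, against 36.8 and 34.1 CPM in vehicle. Both HDT mice were higher, and they differed from each other by more than the vehicle mice did. The log2 fold change was 0.67 (SE 0.141, 95% interval 0.33 to 1.02, limma adjusted p = 0.0134), and 1.21 at the deposited scaling. Leaving out either vehicle mouse ended the call, at 0.728 (limma adjusted p = 0.0578) without replicate 1 and 0.621 (limma adjusted p = 0.0871) without replicate 2. Villin is a hallmark of intestinal absorptive cells and of tuft cells. Of 11 enterocyte markers, 6 did not pass the filter: Sis, Treh, Mep1a, Slc15a1, Cdx1 and Cdx2. Cdx2, the intestinal master regulator, was at 0 to 0.0396 CPM in HDT and at 0 in vehicle, and Fabp2 was at 11.0 ± 1.49 CPM in HDT and 13.2 ± 0.243 CPM in vehicle (SD, n = 2 each). The enterocyte list summed to 25.3 to 27.6 CPM in HDT, against 142 to 145 CPM in vehicle, and 1 gene carried that fall: Apoa4, an apolipoprotein gene, was called lower and made up 89.1% and 89.9% of the sum in the vehicle libraries. Apoa4 was then left out, a choice made after its values were seen. The list without it summed to 17.6 and 20.5 CPM in HDT, against 15.8 and 14.4 CPM in vehicle. The lactase gene Lct was called higher, at 6.38 and 4.99 CPM in HDT, against 1.11 and 0.319 CPM in vehicle. Fabp2, Alpi and Slc5a1 had no call, so the higher sum is not a rise shared by the list. Of 6 tested tuft cell markers 2 were called lower and 0 higher, and the list summed to 205 to 259 CPM in HDT, against 206 to 234 CPM in vehicle, of which Avil, with no call, made up 83.1% to 91.7%. Without Avil, also chosen after its values were seen, the tuft markers summed to 16.9 and 26.0 CPM in HDT, against 39.5 and 32.8 CPM in vehicle, lower without overlap. The part of either cell type in the Vil1 level was not tested.

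Eps8 rose to 67.8 and 59.3 CPM in HDT, against 41.5 and 41.3 CPM in vehicle. Both HDT mice exceeded the near-identical vehicle mice, with a log2 fold change of 0.61 (SE 0.077, 95% interval 0.44 to 0.79, limma adjusted p = 0.000588) that was 1.15 at the deposited scaling. Its call held in each of the 17 alternatives run. Espn, the espin gene, had 33.3 and 32.7 CPM in HDT, against 30.5 and 26.8 CPM in vehicle. The groups were separated by a narrow margin, and the log2 fold change of 0.21 (95% interval 0.02 to 0.39) had no call (limma adjusted p = 0.0768), although it was 0.74 and called higher at the deposited scaling. Without vehicle replicate 1 Espn was called higher (0.298, limma adjusted p = 0.0414), and without vehicle replicate 2 its log2 fold change was 0.116 (limma adjusted p = 0.416). Among these 3 genes, the share of Espn per length was 17.3% and 14.5% in HDT, against 21.2% and 20.0% in vehicle. The shares of Vil1 and Eps8 overlapped between the groups: Vil1 had 59.1% and 67.8% in HDT, against 59.5% and 59.4% in vehicle.

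**Figure D2:**
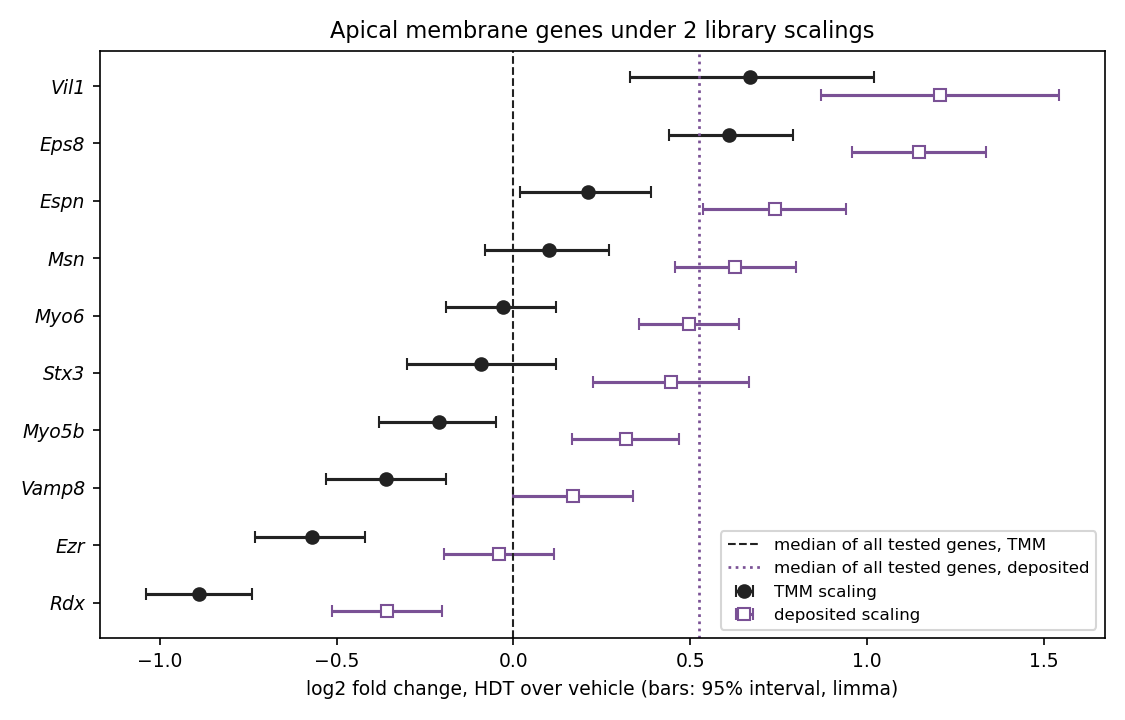
Log2 fold change, HDT over vehicle (x axis), of each gene with its 95% limma interval under TMM (filled) and at the deposited scaling (open); vertical lines mark the medians of all tested genes, −0.001 and 0.526. Vil1 and Eps8 lie right of both medians, Rdx lies left of 0 under either scaling, and Myo5b, Myo6, Stx3 and Vamp8 change sign between scalings.

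Myo6 was the more abundant of the pair of myosin genes, with 128 and 137 CPM in HDT, against 131 and 140 CPM in vehicle. The groups overlapped and the log2 fold change was −0.03 (95% interval −0.19 to 0.12, limma adjusted p = 0.718), while at the deposited scaling it was 0.50 and called higher, near the median gene there. Myo5b had 78.5 and 87.8 CPM in HDT, against 95.01 and 97.6 CPM in vehicle. Its log2 fold change of −0.21 (SE 0.071, 95% interval −0.38 to −0.05) was called lower by a narrow margin (limma adjusted p = 0.0464) and was 0.32 and called higher at the deposited scaling. The lower call did not hold when the replicate number was a block (limma adjusted p = 0.0955), under upper-quartile scaling (0.0735), in the absence of a low-count filter (0.0626), without robust moderation (0.0546) or by DESeq2 (adjusted p = 0.0743). Leaving out HDT replicate 1 also ended it (−0.127 on the log2 scale, limma adjusted p = 0.172), as did leaving out vehicle replicate 1 (−0.233, 0.126) or vehicle replicate 2 (−0.195, 0.196). The call also depended on which rows set the TMM factors. They were first taken over all rows, where Myo5b had a log2 fold change of −0.201 and no call (limma adjusted p = 0.0612), and the change to the tested genes was made after that result had been seen. Per length, Myo5b made up 43.1% and 44.2% of the pair in HDT, against 47.3% and 46.2% in vehicle.

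Vamp8, a SNARE of late endosomes and secretory granules, had 81.1 and 89.6 CPM in HDT, against 114 and 106 CPM in vehicle. Both HDT mice were lower, with a log2 fold change of −0.36 (SE 0.073, 95% interval −0.53 to −0.19, limma adjusted p = 0.00587), which was 0.17 without a call at the deposited scaling (limma adjusted p = 0.0727). Stx3, the apical target SNARE, had 37.8 and 41.3 CPM in HDT, against 45.5 and 38.8 CPM in vehicle. These values overlapped, and the log2 fold change was −0.09 (95% interval −0.30 to 0.12, limma adjusted p = 0.485), or 0.44 and called higher at the deposited scaling. Stx3 per length was 15.9% and 15.7% of the pair in HDT, against 13.9% and 12.9% in vehicle, higher in both HDT mice.

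**Figure D3:**
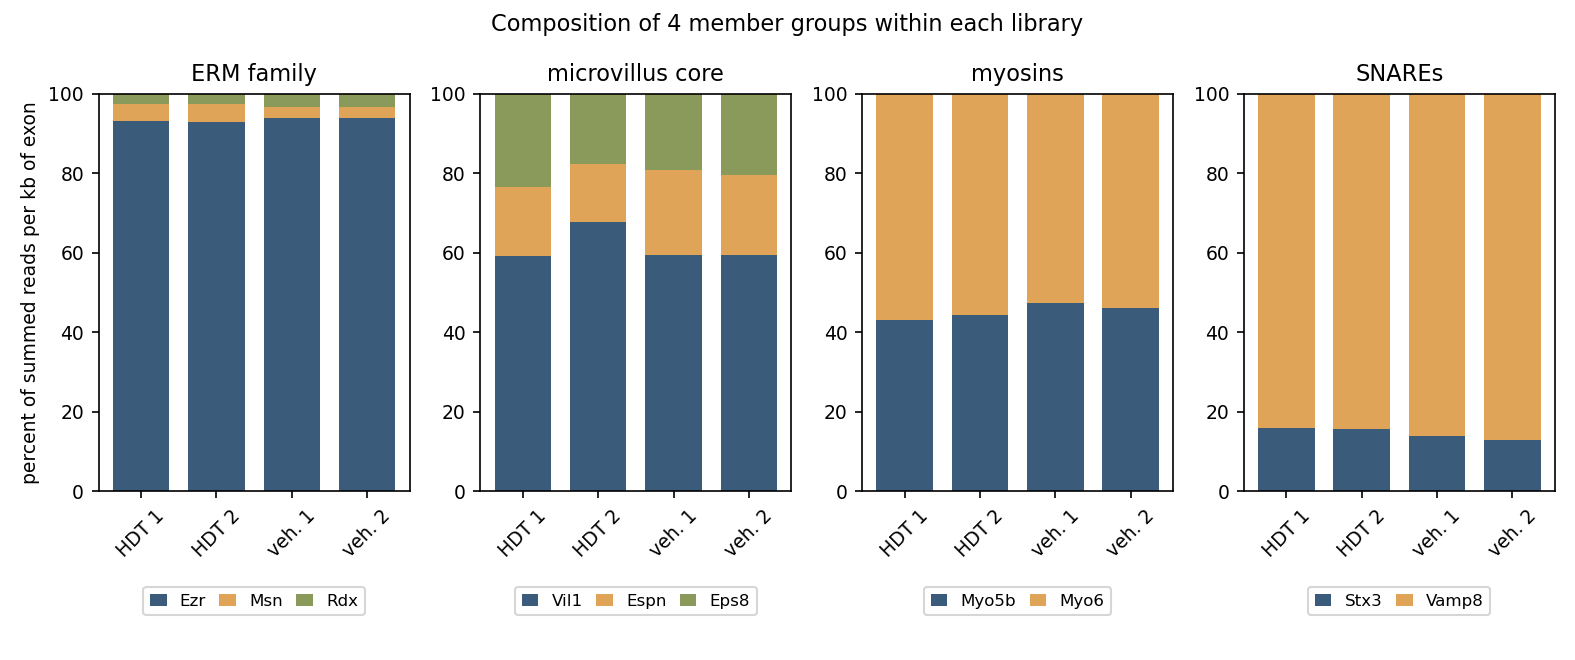
Percent of the summed reads per kilobase of exon (y axis) that each gene took within the ERM, microvillus core, myosin and SNARE groups in each library. Ezr takes 92.9% to 93.9% of the ERM level in every library, and the share of Myo5b lies below that of Myo6 throughout.

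In CPM per kilobase, the order of levels was led by Ezr in both groups, at 221 ± 3.15 in HDT and 328 ± 1.44 in vehicle (SD, n = 2 each). Vamp8 was second, at 36.9 ± 2.59 in HDT and 47.5 ± 2.56 in vehicle. Ezr exceeded it 6.22-fold and 5.74-fold in HDT, against 6.67-fold and 7.15-fold in vehicle. By reads, Ezr ranked 72 and 87 among all rows in the HDT libraries, against 58 and 57 in the vehicle libraries. In HDT the order after Vamp8 was Vil1, Myo6, Msn, Myo5b, Stx3, Rdx, Eps8 and Espn, and only Myo6 and Msn overlapped as neighbours. In vehicle it was Rdx, Myo6, Vil1, Myo5b, Msn, Stx3, Espn and Eps8, where Rdx overlapped Myo6, Vil1 overlapped Myo5b, Myo5b overlapped Msn and Espn overlapped Eps8. Vil1 thus stood at 16.1 ± 3.31 CPM per kilobase in HDT and 9.99 ± 0.525 in vehicle, and Rdx at 6.24 ± 0.0783 in HDT and 11.6 ± 0.285 in vehicle. The log2 ratio of Ezr to Vil1 per length was 3.99 and 3.59 in HDT, against 4.99 and 5.09 in vehicle. That ratio was lower in HDT by 1.25 on the log2 scale, whatever the scaling of the libraries. The log2 ratio of Ezr to Eps8 was likewise 5.31 and 5.54 in HDT, against 6.61 in each vehicle library.

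Reads were also set against 6 genes expressed across epithelium, Epcam, Cdh1, Krt8, Krt18, Krt19 and Tjp1, within each library. Most of their summed reads came from Krt8 and Krt19, with means of 2522 and 2033 CPM in HDT and 2337 and 1986 CPM in vehicle. Epcam and Tjp1 had 188 and 137 CPM in HDT and 115 and 114 CPM in vehicle. Per 1000 summed reads of the 6 genes, Ezr had 119 and 105 reads in HDT, against 176 and 181 in vehicle. Vil1 had 8.11 and 9.39 in HDT, against 5.98 and 5.73 in vehicle, and Eps8 11.3 and 8.49, against 6.75 and 6.92. By this measure 2 members were higher without overlap, Vil1 and Eps8, where 22.7% of all tested genes were, and 6 were lower, where 40.5% were. The lower genes were Ezr, Rdx, Myo5b, Myo6, Stx3 and Vamp8, Myo6 by the narrowest margin with 21.26 and 19.6 in HDT, against 21.32 and 23.6 in vehicle. The choice of reference gene mattered. Epcam itself rose to 188 ± 7.32 CPM in HDT, against 115 ± 3.47 CPM in vehicle (limma adjusted p = 0.000107), and over Epcam alone 0 members were higher without overlap, where 4.95% of all tested genes were, and 8 were lower, where 83.1% were. Vil1 per 1000 Epcam reads was 267 and 339 in HDT, against 313 and 303 in vehicle, and these values overlapped.

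**Figure D4:**
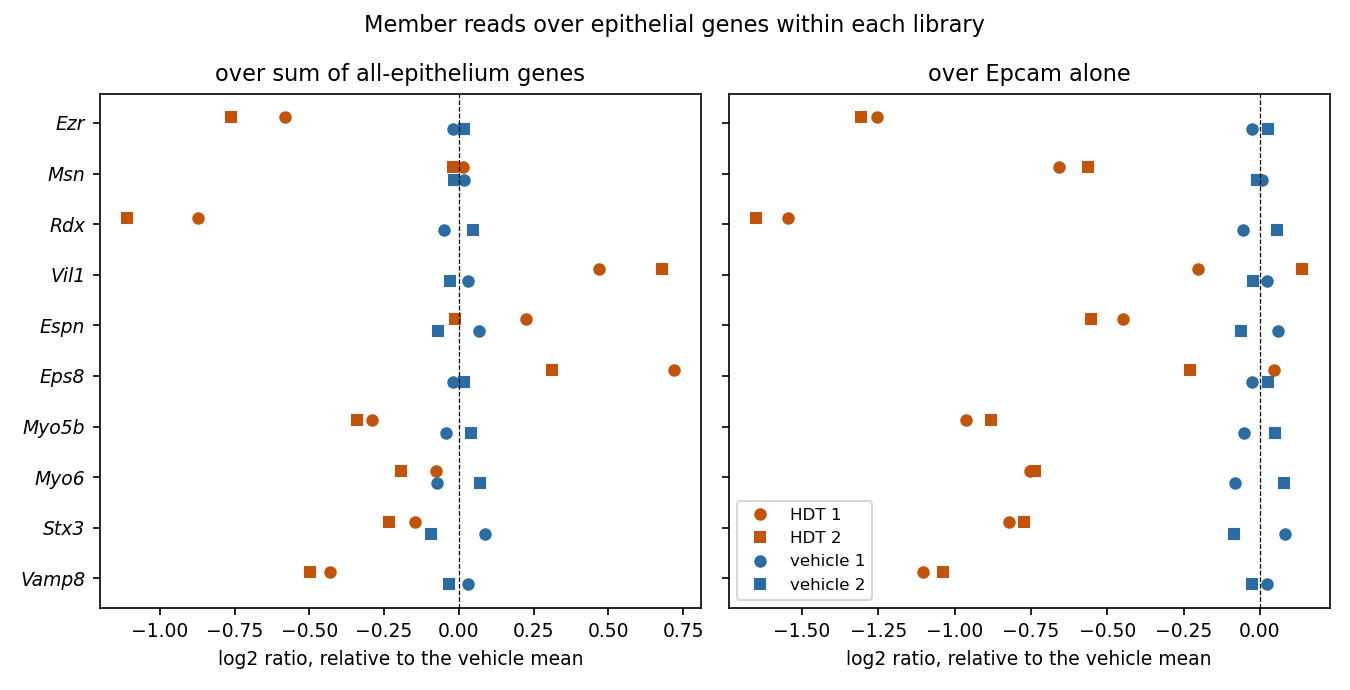
Log2 ratio of each gene's reads to the summed reads of 6 epithelial genes (left) or to Epcam alone (right) in each library, relative to the vehicle mean (x axis). In both panels Ezr, Rdx, Myo5b, Myo6, Stx3 and Vamp8 lie lower in both HDT libraries than in both vehicle libraries. Of all tested genes, 40.5% do so on the left and 83.1% on the right. Vil1 and Eps8 lie higher only on the left, where 22.7% of all tested genes do.

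The partners of these proteins were taken from 5 companion lists with 90 genes, of which 85 were tested. Of these 13 were called higher, 27 lower and 45 neither, with a median log2 fold change of −0.09. Of all tested genes, 18.4% were called higher and 19.3% lower. At the deposited scaling 63 companion genes were higher and 4 lower, where 62.8% and 5.46% of all tested genes were. The same shares of all tested genes apply beside the counts of each list below. The 14 ERM partners and kinases held 4 higher and 3 lower calls (median 0.01), and 12 higher and 0 lower at the deposited scaling. The hyaluronan receptor Cd44, which binds ERM proteins, rose to 25.4 ± 3.02 CPM in HDT, against 13.5 ± 1.96 CPM in vehicle (limma adjusted p = 0.00111, SD, n = 2 each), and Scyl3, an ezrin-binding pseudokinase, had a log2 fold change of 0.40. The ezrin-binding scaffold Slc9a3r2 fell by 0.69 on the log2 scale, and its log2 fold change was −0.16 without a call at the deposited scaling.

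Of 24 microvillus and brush border genes 20 were tested, with 4 calls higher and 6 lower (median −0.08), and 15 higher and 1 lower at the deposited scaling. The actin nucleator Cobl fell to 17.1 ± 3.59 CPM in HDT, against 88.3 ± 1.43 CPM in vehicle, a log2 fold change of −2.38 (limma adjusted p = 8.76e-05) that was −1.85 and called lower at the deposited scaling. The bundling protein genes Pls3 and Pls1, both plastins, differed in direction under TMM. Pls3 was at 49.8 ± 2.52 CPM in HDT and 80.2 ± 0.44 CPM in vehicle, while Pls1 was at 239 ± 18.7 CPM in HDT and 187 ± 1.80 CPM in vehicle. Their log2 fold changes were −0.69 and 0.35 under TMM, and −0.16 without a call and 0.88 at the deposited scaling. Fscn1, which encodes the actin bundler fascin, rose by 0.54 on the log2 scale (limma adjusted p = 0.0209). Espnl, Baiap2l2, Myo7b and Ush1c did not pass the filter.

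Recycling endosome genes and myosin partners numbered 18, with 2 higher and 6 lower calls (median −0.16), or 13 and 1 at the deposited scaling. The Rab11 effector Rab11fip5 fell by 0.97 on the log2 scale (limma adjusted p = 0.000398) and by 0.44 at the deposited scaling, where it stayed called. Tom1, an endosomal adaptor that binds myosin VI, fell by 0.67, and its log2 fold change was −0.13 without a call at the deposited scaling. Myo5a rose by 0.71 and the myosin VI adaptor Gipc1 by 0.29. Of 22 SNAREs and their partners 21 were tested, with 1 call higher and 9 lower (median −0.14), though at the deposited scaling 13 were higher and 0 lower. Stx12 and Vti1b, SNAREs of endosomes, each had a log2 fold change of −0.60 under TMM and −0.07 without a call at the deposited scaling, and the SNARE-recycling ATPase Nsf had 0.20 (limma adjusted p = 0.0412) and 0.73. Nsf was the 1 SNARE-list gene called higher. That count was 0 with the replicate block, where 12.9% of all tested genes were called higher, and by DESeq2, where 14.4% were. The 12 apical polarity genes had 2 higher and 3 lower calls (median −0.09), or 10 and 2 at the deposited scaling. Pard6a fell to 3.63 ± 0.229 CPM in HDT, against 9.18 ± 1.73 CPM in vehicle (limma adjusted p = 0.000428), and the atypical protein kinase C genes Prkcz and Prkci were called in opposite directions, at −0.72 and 0.36 on the log2 scale, as they were without TMM at −0.19 and 0.89. Llgl1 had a log2 fold change of 0.28.

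**Figure D5:**
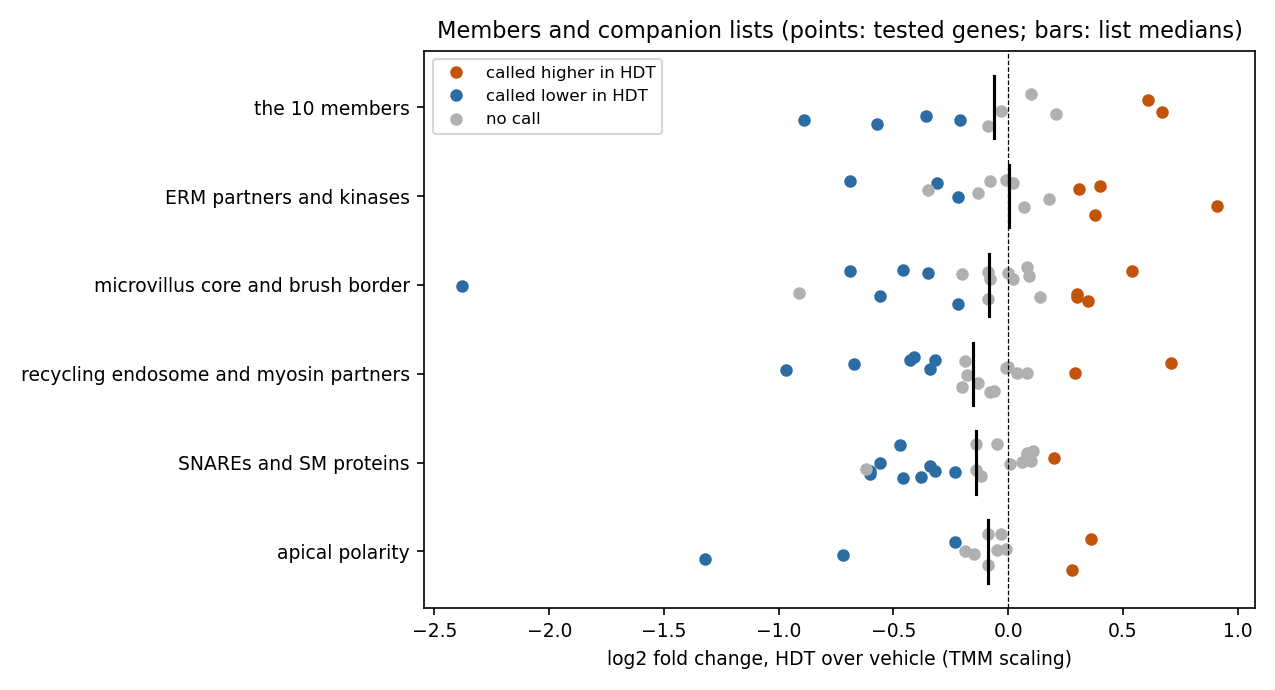
Log2 fold change under TMM (x axis) of each tested gene in the 10-gene set and in 5 companion lists (rows); colour gives the call and black bars give list medians, which lie between −0.16 and 0.01. Cobl stands furthest left at −2.38, and the recycling endosome and SNARE lists hold 2 and 1 higher calls, against 13 each at the deposited scaling. Of all tested genes, 18.4% were called higher under TMM and 62.8% at the deposited scaling.

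Among the 95 tested genes of these lists, those closest to Ezr over the 4 libraries were Tom1 and Vti1b, at distances of 0.065 and 0.069 in centred log2 CPM. Vil1 was closest to Fscn1 (0.178) and Cd44 (0.270). Myo5b was closest to Rab8a and Snap23, each at 0.058. With 4 libraries in 2 groups, such distances largely restate how similar the log2 fold changes were. These were −0.57 for Ezr, −0.67 for Tom1 and −0.60 for Vti1b.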

How the data were processed

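Bulk RNA from the stomach corpus of 4 mice, 2 per group, was analysed from 1 deposited table of 52125 rows named by gene symbol. The submitters' processing notes name the builds GRCm38 and mm10 and the tools STAR 2.7.1a, Subread 2.0.0, featureCounts and edgeR. For annotation, strand setting and scaling, nothing is stated in the labels or the file header. The values the authors deposited are a signal, namely gene counts multiplied by 1 factor per library. Division by this factor returned whole reads, within 0.01, for 100% of nonzero values. Depth was 42175023 and 42674985 reads in HDT replicates 1 and 2, and 41536686 and 42104568 reads in vehicle replicates 1 and 2. The spread of replicates exceeded sampling noise: chi-square over its degrees of freedom was 30.4 in the HDT pair and 15.6 in the vehicle pair.

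Genes were kept by edgeR's filterByExpr (edgeR 4.0.16), which left 18285. Deposited values were divided by column totals times trimmed-mean (TMM) factors of 1.219 and 1.183 for the HDT libraries and 0.848 and 0.818 for the vehicle libraries. limma 3.58.1, with trend and robust moderation, compared HDT with vehicle on log2(value + 1), and fold changes on this scale are too small for genes with few reads, owing to the pseudocount. P-values were two-sided, with Benjamini-Hochberg adjustment across the tested genes and a threshold of 0.05. The TMM factors were first taken over all rows; the change to the tested genes was made after those results had been seen, and the first version is kept as an added alternative. Because the deposited table holds scaled values, edgeR's quasi-likelihood test and DESeq2 1.42.0 were run on the recovered reads as alternatives. The main limma fit and the edgeR fit were also run on simulated counts with 200 changed genes, against 6889 genes called here. That setting differs from these data, so it cannot show how the fits perform on them. DESeq2 and the other alternatives were not run on simulated counts. Levels are CPM on TMM-scaled library sizes, and levels compared between genes are CPM per kilobase of union exon length in GENCODE M21 (GRCm38). That length covers all annotated isoforms, so it understates genes with many long isoforms. Promoter sequences are those of RefSeq on GRCm38.p6, searched for 8 of the 10 genes, without Myo5b and Eps8.

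The 10 genes, the companion lists and the marker lists were chosen with earlier results of these data known. Besides the 10 genes, the genes eligible to be named were the 2 called genes with the largest rise and the 2 with the largest fall of each companion list and the first 2 genes of each marker list, and for Ezr, Vil1 and Myo5b the 2 listed genes closest in pattern. Some marker genes are given only within their list's sum, and 1 companion gene that the rule gives is not reported here. Any other gene was chosen after its values were seen.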

Additional observations from a re-analysis of the deposited data

How the results depend on the processing

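Across the 17 alternatives, the calls of Rdx and Eps8 held in 17 and that of Ezr in 16, while that of Myo5b as lower held in 7. Of these, 16 were planned and 1, TMM factors over all rows, was added after seeing the data. It was the first version of the fit and called 3479 genes higher and 3380 lower, with 2 of the 10 genes higher and 3 lower, since Myo5b was not called (limma adjusted p = 0.0612). The deposited scaling moved most. There 11483 of all tested genes were higher and 998 lower, 7 of the 10 genes were higher and 1 lower, and 63 companion genes were higher and 4 lower. Log2 fold changes then had the opposite sign for Myo5b (0.318), Myo6 (0.498), Stx3 (0.445) and Vamp8 (0.168), because this scaling raises the median gene by 0.526 on the log2 scale. With the replicate number as a block, 2359 of all tested genes were higher and 2623 lower (12.9% and 14.3%). With that block, 2 of the 10 genes were higher and 3 lower, and 8 companion genes were higher. Same-numbered libraries deviated from their group means with a correlation of −0.278. With 2 libraries per group, that value cannot show whether the numbers mark a pairing, and the labels record none. In leave-one-out fits, Myo6 ranged from −0.083 to 0.019 and Stx3 from −0.202 to 0.027. The count of higher members ranged from 1 to 2 in those fits, and that of higher companion genes from 6 to 11, each lowest without vehicle replicate 2. Without vehicle replicate 1 the 2 higher members were Eps8 and Espn, not Vil1. Without division by length, the HDT minus vehicle difference in share was −1.88 points for Ezr, 2.84 for Msn and −0.961 for Rdx. Over Epcam alone, 0 members were higher in both HDT libraries than in both vehicle libraries, as were 4.95% of all tested genes. The cause of these shifts beyond the scaling itself was not tested. With 2 mice per group, much of each spread estimate comes from other genes (median prior degrees of freedom 5.87).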
